A study of Mus musculus with 12 samples.

Results

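The Notch receptors Notch1, Notch2 and Notch3, the ligands Jag1, Jag2 and Dll1, and the target genes Hes1, Hes5, Hey1 and Heyl were followed through 6 cell populations of mouse back skin. These 10 genes were chosen by symbol, and all 10 were found among the 19150 genes of the deposited expression table. The populations were sorted by flow cytometry from mice of the outbred strain CD1 at postnatal day 5, while hair follicles grow. Dermal sheath, dermal papilla and dermal fibroblasts are mesenchymal, outer root sheath and matrix are epithelial, and melanocytes are the pigment cells. Each population had 2 RNA sequencing libraries, 12 in all, and the labels name no treatment or genotype that separates them. The gates and surface markers of the sort are not given in the sources used here, nor is the number of animals behind a library. No source used here states that paired libraries stem from different animals. The p-values below therefore measure how far these libraries lie apart, and that spread may be technical.

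Notch signalling passes between touching cells. A Jagged or Delta-like ligand on one cell engages a receptor on its neighbour, ADAM10 and then γ-secretase cut the receptor, and the freed intracellular domain enters the nucleus, binds RBPJ and recruits Mastermind coactivators. Genes of the HES and HEY families, which encode basic helix-loop-helix repressors, are the best known targets, and in skin the pathway is known for its part in keratinocyte differentiation, in the upkeep of hair follicles and in the survival of melanocyte precursors. The libraries measure RNA, not receptor cleavage.

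Levels are FPKM, which relate reads to the length of the transcript and the size of the library, so levels of different genes can be set side by side. Each population's marker list had its highest sums in that population, apart from the fibroblast list, and the dermal sheath list (Acta2, Tagln, Myh11, Cnn1, Itga8 and Mylk) reached 1158 to 1778 FPKM in sheath and at most 144 elsewhere. The sums of the fibroblast list overlapped between fibroblasts (10248 to 12145 FPKM) and sheath (8729 to 10955 FPKM). The libraries labelled dermal fibroblasts also held melanocyte transcripts: all 10 melanocyte markers were at 1 FPKM or more, and their sum was 7437 to 7895 FPKM beside 14400.3 to 17129 FPKM in melanocytes and at most 110 FPKM in any other population. Across the 10 markers the fibroblast level had a median of 47.5% of the mean melanocyte level in replicate 1 and 39.3% in replicate 2. Single markers ranged from 15.9 to 77.1% in replicate 1 and from 22.6 to 62.3% in replicate 2, so the share is not well determined. Calls of the 10 Notch genes against fibroblasts alone are given with and without a melanocyte share subtracted. Calls of other pathway genes, and those of epithelium against dermal mesenchyme, are given without the subtraction. The replicate 2 libraries also shared steps in their low values that the replicate 1 libraries did not (7.35 to 19.8% of low-valued genes at 1 common ratio in pairs of replicate 2 libraries, 0.314 to 1.25% in pairs of replicate 1 libraries). From these steps, the replicate 2 libraries had 0.976 (papilla), 1.17 (fibroblasts), 0.439 (outer root sheath), 0.4 (matrix) and 0.491 (melanocytes) times the depth of sheath replicate 2, each read from 10.7 to 14.5% of low-valued genes, so low values of the last 3 rest on fewer reads. Each population has 1 library of each number, and differences are given within each number where a result turns on them. In bulk libraries, fewer cells of a type and less RNA per cell cannot be told apart.

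Hes5 (chr4:154960923-154962371, plus strand) was near 0 in every population. It was listed at 0 in 7 of 12 libraries, its highest value was 0.922 FPKM in matrix replicate 2, and it did not pass the filter of 1 FPKM in 2 libraries. The other 9 genes were tested. Hes5 is a classical RBPJ target, and Hey2, a close relative of Hey1 that is described beside the 10 genes, was abundant in dermal papilla. The promoters of these 2 genes are shown because both carry the RBPJ-binding letters while their RNA levels lie far apart. Each sequence is the 250 bases before the RefSeq start site on the strand of the gene (GRCm38.p6), and capitals mark GTGGGAA or its reverse complement TTCCCAC.
Hes5, chr4:154960673-154960922, plus strand: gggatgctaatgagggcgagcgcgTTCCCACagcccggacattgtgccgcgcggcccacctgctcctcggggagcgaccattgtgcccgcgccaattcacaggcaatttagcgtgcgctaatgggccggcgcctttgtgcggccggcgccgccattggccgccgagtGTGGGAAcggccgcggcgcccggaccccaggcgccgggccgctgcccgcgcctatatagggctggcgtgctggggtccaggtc
Hey2, chr10:30842784-30843033, minus strand: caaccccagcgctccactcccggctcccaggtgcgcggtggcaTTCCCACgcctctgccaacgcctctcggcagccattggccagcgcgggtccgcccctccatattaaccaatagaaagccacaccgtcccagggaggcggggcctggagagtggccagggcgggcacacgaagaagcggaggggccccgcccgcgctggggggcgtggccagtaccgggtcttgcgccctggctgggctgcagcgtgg
In Hes5 the matches begin 226 and 83 bases before the start site, and in Hey2 the match begins 207 bases before it. The letters, searched on both strands, occur in 5.42% of 32851 mouse promoters of this length and at least 2 times in 0.161%. Of the 10 genes, 7 had a promoter in the RefSeq table, while Hes1, Hey1 and Heyl had none and were not searched. Among the 7, the letters were found in Hes5 and not in the windows of Dll1, Jag1, Jag2, Notch1, Notch2 or Notch3. The Notch1 window (chr2:26503823-26504072) lies well inside the gene span given below, so it may not precede the main start of Notch1. A match describes the letters and is not evidence that RBPJ binds there.

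**Figure D1:**
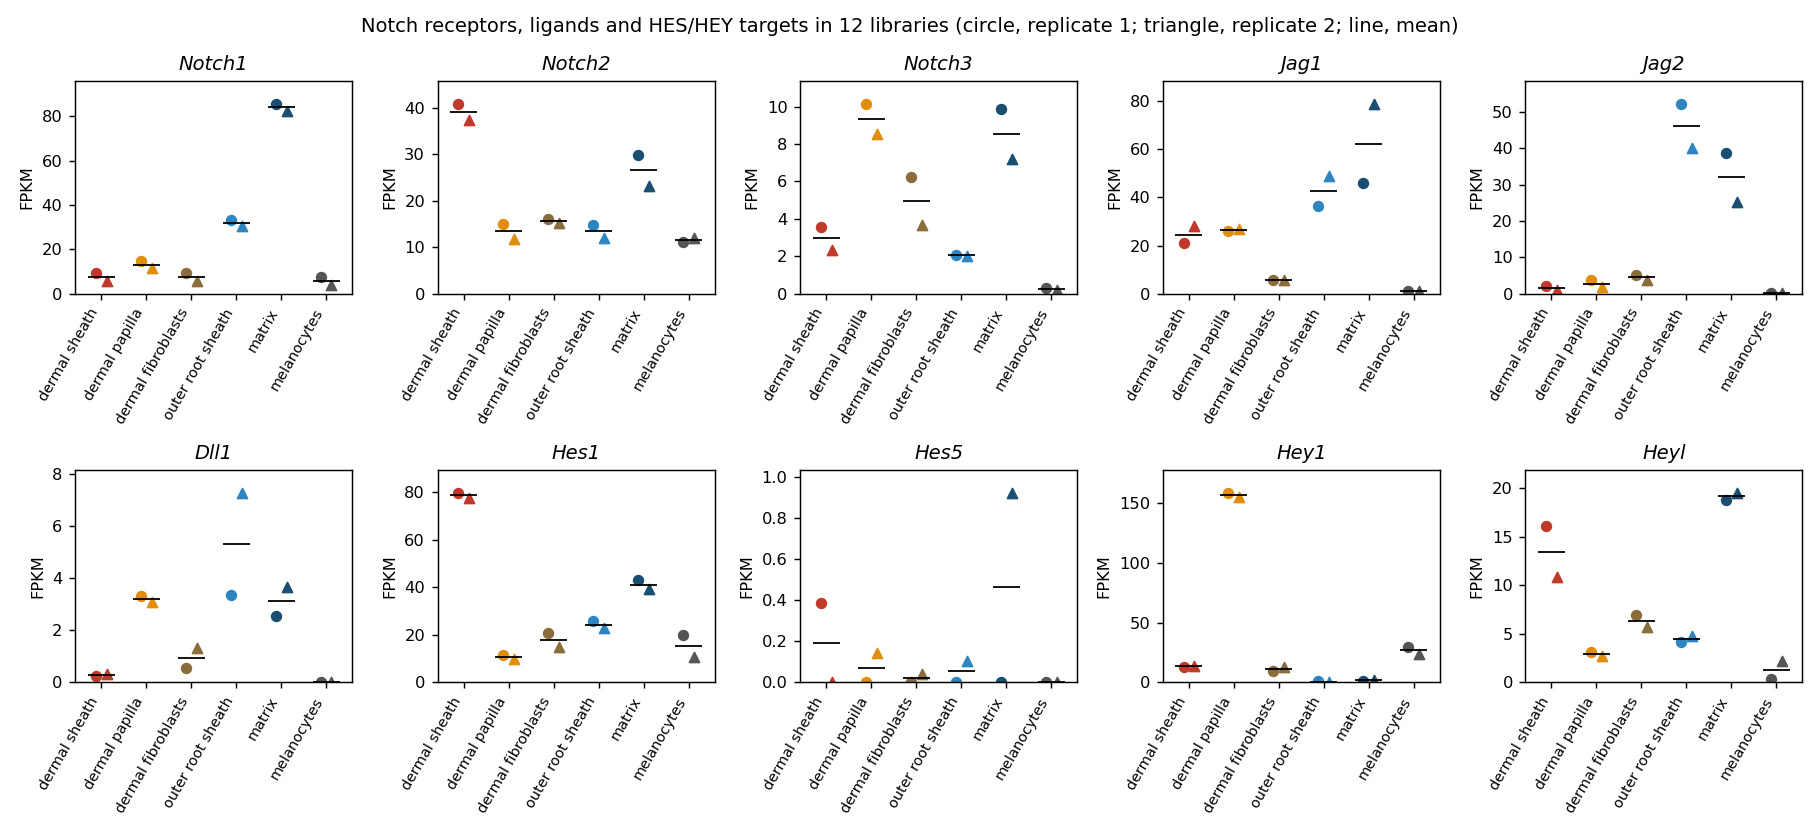
Level of each of the 10 genes in FPKM (vertical axes, linear, each with its own range) in the 6 populations (horizontal axes), with a circle for replicate 1, a triangle for replicate 2 and a line at their mean. Notch1 and Jag2 stand highest in the epithelial populations, Notch2 and Hes1 in dermal sheath, and Hey1 in dermal papilla.

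The receptors had different leading populations. Notch1 lies on mouse chromosome 2 (mm10, chr2:26457903-26516663, minus strand) and encodes the receptor best known in epidermis and hair follicle. Notch1 was at 85.6 and 82.5 FPKM in matrix and at 33.3 and 30.3 FPKM in outer root sheath. In dermal papilla it was at 14.5 and 11.6 FPKM, in sheath at 9.35 and 5.66, in fibroblasts at 9.22 and 5.83, and in melanocytes at 7.65 and 3.92. Matrix, outer root sheath and papilla followed each other without overlap, whereas the libraries of fibroblasts, sheath and melanocytes overlapped.

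Notch2 (chr3:98013527-98150361, plus strand) had a different order. Notch2 was at 40.9 and 37.3 FPKM in dermal sheath and at 29.9 and 23.2 FPKM in matrix. The other 4 populations were lower and close together, with 16.2 and 15.3 FPKM in fibroblasts, 15.1 and 11.7 in papilla, 14.8 and 12.01 in outer root sheath, and 11.2 and 11.98 in melanocytes. Both sheath libraries lay above every other library, and the papilla libraries overlapped those of outer root sheath and melanocytes.

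Notch3 (chr17:32120820-32166852, minus strand), a receptor known mainly from vascular smooth muscle and pericytes, was lower than Notch1 and Notch2 in every population by mean FPKM. Its libraries were at 10.2 and 8.54 FPKM in papilla, 9.86 and 7.19 in matrix, 6.25 and 3.65 in fibroblasts, 3.57 and 2.34 in sheath, 2.09 and 2.02 in outer root sheath, and 0.316 and 0.193 in melanocytes. Papilla and matrix overlapped at the top of this order. Dermal sheath, the population with the highest summed smooth muscle markers, lay below papilla in both libraries.

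As a share of the FPKM of all 4 Notch receptors, Notch2 made up 75.2 to 82.2% in dermal sheath. Notch1 made up 67.9 to 73.0% in matrix and 66.3 to 67.8% in outer root sheath. In papilla no receptor dominated, with 35.8% for Notch1 in both libraries, 36.2 to 37.2% for Notch2 and 25.0 to 26.4% for Notch3. The summed receptor level ranged from 16.3 to 20.1 FPKM in melanocytes to 113 to 126 FPKM in matrix, with 45.4 to 54.4 FPKM in sheath.

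Among the ligands, Jag1 (chr2:137081456-137116644, minus strand) was the broad one. Jag1 was at 45.9 and 79.0 FPKM in matrix, 36.6 and 49.1 in outer root sheath, 26.2 and 26.7 in papilla and 20.99 and 27.9 in sheath. It was at 5.85 and 5.83 FPKM in fibroblasts and at 1.20 and 1.17 in melanocytes. The libraries of matrix and outer root sheath overlapped, as did those of papilla and sheath, while fibroblasts and melanocytes each stood apart below them.

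Jag2 (chr12:112907819-112929776, minus strand), a ligand of stratified epithelia, was at 52.2 and 39.9 FPKM in outer root sheath and at 38.8 and 25.2 FPKM in matrix. Its highest mesenchymal or melanocyte library was fibroblast replicate 1 at 5.01 FPKM. Fibroblast replicate 2 was at 3.85 FPKM, papilla at 3.78 and 1.69, sheath at 2.16 and 0.865, and melanocytes at 0.238 and 0.104. Both epithelial populations were above all 8 other libraries.

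Dll1 (chr17:15367354-15376872, minus strand), a Delta-like ligand, was low throughout, with a highest library of 7.30 FPKM in outer root sheath replicate 2. Outer root sheath replicate 1 was at 3.37 FPKM, papilla at 3.32 and 3.08, matrix at 2.57 and 3.68, fibroblasts at 0.567 and 1.30, and sheath at 0.235 and 0.319. Dll1 was listed at 0 in both melanocyte libraries.

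Jag1 made up 89.7 to 95.9% of the FPKM of the measured Jagged and Delta-like ligands in dermal sheath and 77.1 to 83.6% in papilla. In outer root sheath Jag1 and Jag2 were nearer to each other, at 39.7 to 51.0% and 41.4 to 56.6%. The summed ligand level was 92.2 to 96.4 FPKM in outer root sheath and 87.3 to 108 in matrix, against 32.0 to 34.0 in papilla, 23.4 to 29.1 in sheath, 11.03 to 11.5 in fibroblasts and 1.32 to 3.03 in melanocytes.

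**Figure D2:**
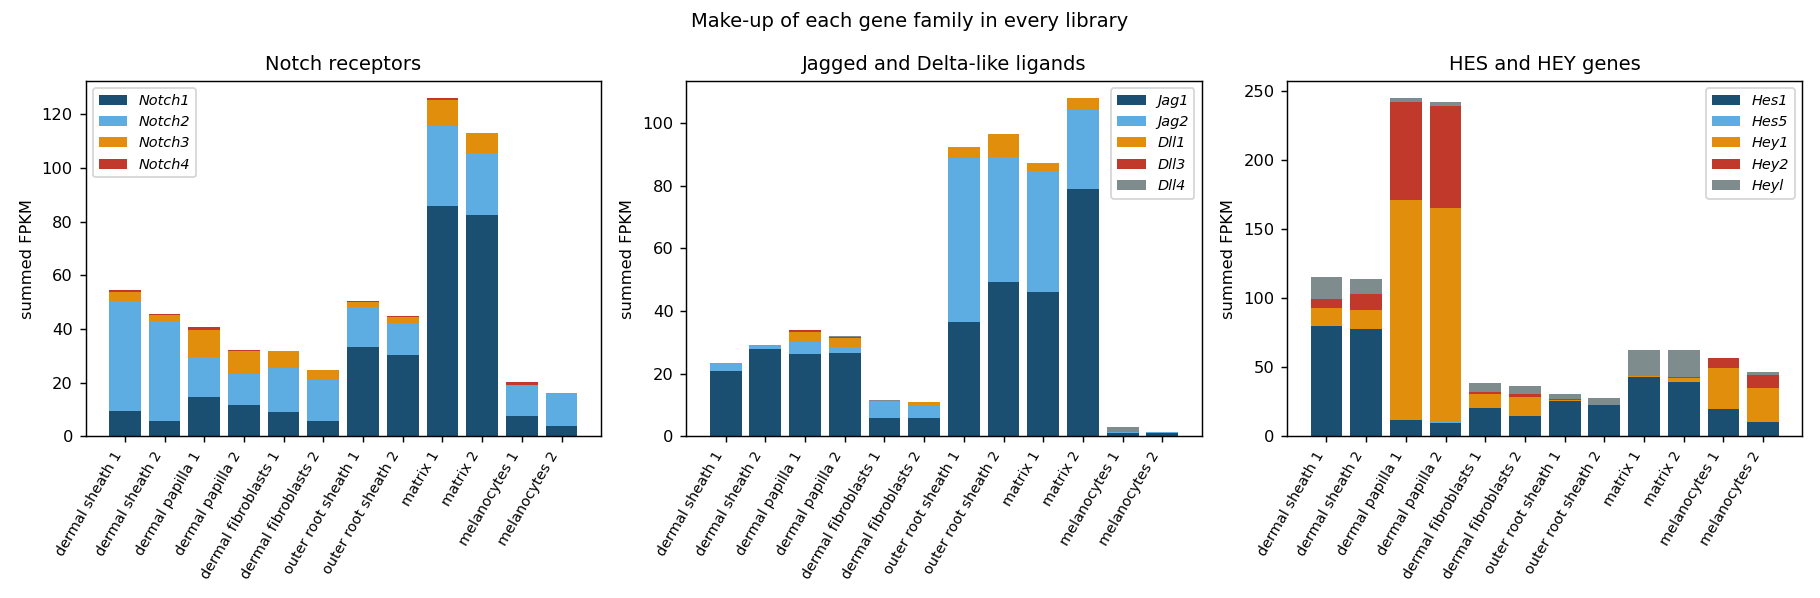
Stacked FPKM of the receptors, ligands and HES/HEY genes (vertical axes) in each of the 12 libraries (horizontal axis), coloured by gene. Notch2 fills most of the receptor bar in dermal sheath and Notch1 most of it in matrix and outer root sheath, and the tall HES/HEY bars of dermal papilla consist mainly of Hey1 and Hey2.

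The target genes had 3 different leading populations: sheath for Hes1, papilla for Hey1 and matrix for Heyl. Hes1 (chr16:30064384-30067796, plus strand), a repressor that Notch and other pathways induce, was at 79.8 and 77.3 FPKM in dermal sheath. Matrix was at 43.0 and 39.3 FPKM, outer root sheath at 25.6 and 22.7, fibroblasts at 20.7 and 14.9, melanocytes at 20.1 and 10.7, and papilla at 11.6 and 9.91. Sheath, matrix and outer root sheath followed each other without overlap, and the melanocyte libraries overlapped those of fibroblasts and of papilla.

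Hey1 (chr3:8663359-8667256, minus strand), a HEY-family repressor, was at 159 and 155 FPKM in dermal papilla. Melanocytes followed at 29.7 and 24.0 FPKM, sheath at 12.8 and 13.8, and fibroblasts at 9.77 and 13.2. In the epithelial populations Hey1 was near the floor, at 0.727 and 0.224 FPKM in outer root sheath and 0.986 and 2.33 FPKM in matrix. The papilla libraries lay within the top 2% of all genes in the table by level (98.2 to 98.3% of genes were at or below them), and sheath and fibroblasts overlapped.

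Heyl (chr4:123233556-123249875, plus strand), the third HEY gene, had an order of its own in which no neighbouring populations overlapped. It was at 18.8 and 19.5 FPKM in matrix, 16.1 and 10.8 in sheath, 6.93 and 5.65 in fibroblasts, 4.11 and 4.72 in outer root sheath, 3.07 and 2.67 in papilla, and 0.374 and 2.19 in melanocytes. The populations with the most Heyl, matrix and sheath, were also those with the most Hes1 and Notch2.

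Hes1 made up 67.8 to 69.2% of the summed FPKM of Hes1, Hes5, Hey1, Hey2 and Heyl in dermal sheath, 63.2 to 68.5% in matrix and 81.8 to 83.3% in outer root sheath. In dermal papilla its share was 4.10 to 4.73%, with Hey1 at 64.2 to 65.0% and Hey2 at 29.0 to 30.5%. Hey1 led in melanocytes with 52.0 to 52.1%. The sum was highest in papilla, at 242 to 245 FPKM, against 114 to 115 FPKM in sheath and 27.7 to 30.8 FPKM in outer root sheath.

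The first comparison set the dermal sheath against the dermal fibroblasts outside the follicle. Hes1, Notch2 and Jag1 were higher in sheath, and no tested gene of the 10 was called lower. Hes1 differed by 2.1 ± 0.29 on the log2 scale (SE, 4.29-fold, limma adjusted p = 0.000392), Jag1 by 1.88 ± 0.29 (3.69-fold, adjusted p = 0.000850) and Notch2 by 1.26 ± 0.23 (2.39-fold, adjusted p = 0.00314). Here and below, differences are of log2(FPKM + 1), which understates the change of genes with low levels, p-values come from limma's moderated test over 13974 genes with Benjamini-Hochberg adjustment, and a gene was called at an adjusted p under 0.05 and a log2 difference of at least 1. The 3 genes were called higher out of 9 tested, against 7.07% of all genes called higher and 6.37% called lower, and the median log2 difference of the 9 was 0.21 beside -0.03 over all genes tested. Within replicate numbers 1 and 2, Hes1 differed by 1.90 and 2.30, Jag1 by 1.68 and 2.08, and Notch2 by 1.29 and 1.23. With the melanocyte share subtracted from the fibroblast libraries, the log2 difference was 2.74 for Hes1, 2.00 for Jag1 and 1.77 for Notch2, and with the rest also rescaled it was 1.97, 1.27 and 1.003. All 3 remained called in both. Subtraction alone can only lower fibroblast values, so it cannot shrink these differences and is no check on them. In the rescaled form Notch2 was barely above the fold threshold.

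Notch1 (log2 difference -0.01), Notch3 (-0.57), Dll1 (-0.57), Hey1 (0.21), Heyl (0.97, limma adjusted p = 0.122) and Jag2 (-1.15, adjusted p = 0.0629) were not called. Hey1 and Jag2 depended on the processing. The subtracted Hey1 values that follow also depend on the share taken, and single markers gave widely differing shares. With the melanocyte share subtracted, fibroblast Hey1 fell from 9.77 to 0 FPKM in replicate 1 and from 13.2 to 2.63 FPKM in replicate 2, and sheath became higher by 2.90 (limma adjusted p = 0.00291, range over 15 alternatives 0.00291 to 0.999). Jag2 was called lower in sheath with the replicate block, after rescaling to TPM and under both forms of the subtraction (limma adjusted p 0.00518 to 0.344 over 15 alternatives), and Notch3 was called lower, by 1.25, when the rest of the fibroblast library was also rescaled (adjusted p 0.0321 to 0.787 over 15). Pericyte markers were mixed. Their sum was 207 to 238 FPKM in sheath, with 4 of 7 at 1 FPKM or more, and 74.9 to 75.8 FPKM in fibroblasts, with 6 of 7. Mcam was at 125 and 114 FPKM in sheath against 14.5 and 10.1, and Cspg4 at 40.2 and 27.7 against 5.33 and 3.24. Rgs5 was close in both (13.4 and 14.4 against 9.22 and 13.1), while the pericyte channel genes Kcnj8 (0.0294 and 0.0247 against 5.00 and 6.01) and Abcc9 (0.639 and 0.527 against 2.38 and 3.49) were lower in sheath. The part of such cells in these differences was not tested. Leukocyte markers summed to 23.6 to 35.1 FPKM in sheath and 7.36 to 8.43 in fibroblasts, and endothelial markers to at most 17.6 FPKM in any library. Schwann cell markers summed to 455 to 692 FPKM in sheath (4 of 6 at 1 FPKM or more in both libraries) and 375 to 445 in fibroblasts (5 of 6). In papilla they summed to 112 to 136 FPKM (3 of 6). The part of these cells was not tested either.

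The second comparison set the sheath against the dermal papilla, the mesenchymal cluster that it adjoins. The HES/HEY genes went in opposite directions: Hes1 and Heyl were higher in sheath and Hey1 was higher in papilla. Notch2 was higher in sheath, while Notch3 and Dll1 were higher in papilla. Hes1 differed by 2.76 ± 0.29 (6.79-fold, limma adjusted p = 5.63e-05) and Hey1 by -3.47 ± 0.31 (11.1-fold lower in sheath, adjusted p = 2.19e-05). Heyl differed by 1.88 ± 0.37 (3.67-fold, limma adjusted p = 0.00456) and Notch2 by 1.49 ± 0.23 (2.80-fold, adjusted p = 0.000998). Notch3 differed by -1.40 ± 0.31 (2.64-fold lower in sheath, limma adjusted p = 0.00830) and Dll1 by -1.72 ± 0.33 (3.29-fold lower, adjusted p = 0.00348).

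These were 3 genes higher and 3 lower of 9, against 7.41% and 7.18% of all genes, with a median log2 difference of -0.56 beside -0.09. Within replicate numbers 1 and 2, Hes1 differed by 2.69 and 2.84 and Hey1 by -3.54 and -3.40. Notch1 (-0.75), Jag1 (-0.12) and Jag2 (-0.56) were not called, Notch1 with a limma adjusted p of 0.176. Heyl lost its call without sheath replicate 1 (1.61, limma adjusted p = 0.0518, range over 13 alternatives 0.00108 to 0.0518), and Notch3 without sheath replicate 2 (-1.18, adjusted p = 0.0759) or papilla replicate 1 (-1.29, adjusted p = 0.0697, range over 13 alternatives 0.00154 to 0.0759). Notch1 was called lower in sheath, by 1.11, after rescaling to TPM (limma adjusted p 0.0283 to 0.554 over 13 alternatives), a scaling under which the median of all genes shifted to -0.38, and at a pseudocount of 5 Notch3 (-0.85) and Dll1 (-0.64) fell under the fold threshold. Pericyte markers summed to 32.4 to 38.5 FPKM in papilla, below the sheath, and their part was not tested here either.

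The third comparison set papilla against fibroblasts, and it shares its libraries with the first 2 comparisons. Hey1, Jag1 and Dll1 were higher in papilla, and none of the 10 genes was called lower. Hey1 differed by 3.68 ± 0.31 (12.8-fold, limma adjusted p = 1.05e-05), Jag1 by 2.01 ± 0.29 (4.02-fold, adjusted p = 0.000530) and Dll1 by 1.14 ± 0.33 (2.21-fold, adjusted p = 0.0347). The count of 3 of 9 stands against 7.50% of all genes called higher and 6.68% called lower, and the median log2 difference of the 9 was 0.74 beside 0.05. Within replicate numbers 1 and 2, Hey1 differed by 3.89 and 3.46, Jag1 by 1.99 and 2.02 and Dll1 by 1.46 and 0.83. With the melanocyte share subtracted, fibroblast Hey1 was at 0 and 2.63 FPKM and the Hey1 difference rose to 6.37 (6.10 with rescaling), while that of Jag1 was 2.12 (1.40 with rescaling). Both remained called.

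Dll1 lost its call without papilla replicate 1 (1.10, limma adjusted p = 0.157), papilla replicate 2 (1.19, adjusted p = 0.124) or fibroblast replicate 1 (0.87, adjusted p = 0.248), at pseudocounts of 0.1 and 5, without the filter, and with the subtraction and rescaling (0.71, range over 15 alternatives 0.0139 to 0.248). Subtraction alone added a call for Notch1 (1.26 higher in papilla, limma adjusted p 0.0232 to 0.580 over 15 alternatives), and subtraction with rescaling added calls lower in papilla for Jag2 (-1.27, adjusted p 0.0485 to 0.891 over 15) and Heyl (-1.53, adjusted p 0.0237 to 0.423 over 15).

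The fourth comparison was within the epithelium. Notch1, Notch3 and Heyl were lower in outer root sheath than in matrix, and none of the 10 genes was called higher. Heyl differed by -1.90 ± 0.37 (3.73-fold, limma adjusted p = 0.00979), Notch3 by -1.63 ± 0.31 (3.09-fold, adjusted p = 0.00788) and Notch1 by -1.38 ± 0.33 (2.60-fold, adjusted p = 0.0276). Notch2 was under the fold threshold at -0.93 ± 0.23 (limma adjusted p = 0.0344), and Jag1, Jag2, Dll1, Hes1 and Hey1 were not called. The share of all genes called lower was 2.51%, and called higher 4.59%, and the median log2 difference of the 9 was -0.82 beside -0.03.

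Within replicate numbers 1 and 2, Heyl differed by -1.95 and -1.85, Notch3 by -1.81 and -1.44 and Notch1 by -1.34 and -1.42. The p-values here were near the threshold: Notch1 lost its call without any 1 of the 4 libraries and without the filter (limma adjusted p 0.00224 to 0.160 over 12 alternatives), Heyl without either outer root sheath library or without matrix replicate 2 and at a pseudocount of 0.1 (0.00148 to 0.0725 over 12), and Notch3 without outer root sheath replicate 2 or matrix replicate 1 and, at -0.93, at a pseudocount of 5 (0.00141 to 0.0609 over 12). Outer root sheath markers summed to 1394 to 1836 FPKM in matrix beside 4580 to 4705 FPKM in outer root sheath, with all 7 at 1 FPKM or more in both, and the part of shared cells in these values was not tested.

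The fifth comparison set the mean of outer root sheath and matrix against the mean of the 3 dermal mesenchymal populations. By these means, the ligands and Notch1 were on the epithelial side and Hey1 was on the mesenchymal side. For Dll1 this did not hold in papilla, whose mean of 3.20 FPKM was close to the 3.13 FPKM of matrix. Papilla Dll1 was called against neither matrix nor outer root sheath. Jag2 was higher in epithelium by 3.43 ± 0.24 (10.8-fold, limma adjusted p = 4.72e-07), Notch1 by 2.42 ± 0.21 (5.34-fold, adjusted p = 2.65e-06) and Jag1 by 1.62 ± 0.18 (3.07-fold, adjusted p = 1.91e-05). Dll1 was higher by 1.20 ± 0.21 (2.29-fold, limma adjusted p = 0.000502), and Hey1 differed by -3.97 ± 0.20 (15.7-fold lower in epithelium, adjusted p = 3.65e-08). Notch2 (-0.10), Notch3 (-0.20), Hes1 (0.33) and Heyl (0.51) were not called, although each varied between populations on the same side.

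These were 4 higher and 1 lower of 9, against 15.4% and 20.8% of all genes, with a median log2 difference of 0.51 beside -0.07. Within replicate numbers 1 and 2, Jag2 differed by 3.36 and 3.50, Notch1 by 2.21 and 2.62, and Hey1 by -3.96 and -3.99. Jag1 fell to 0.97, just under the fold threshold, when the fibroblasts were left out, and Dll1 to 0.96 without outer root sheath replicate 2 and to 0.51 at a pseudocount of 5. Outer root sheath markers in the 6 dermal libraries summed to between 149 and 319 FPKM, with all 7 at 1 FPKM or more, and their part in the dermal levels of Jag2 and Notch1 was not tested.

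**Figure D3:**
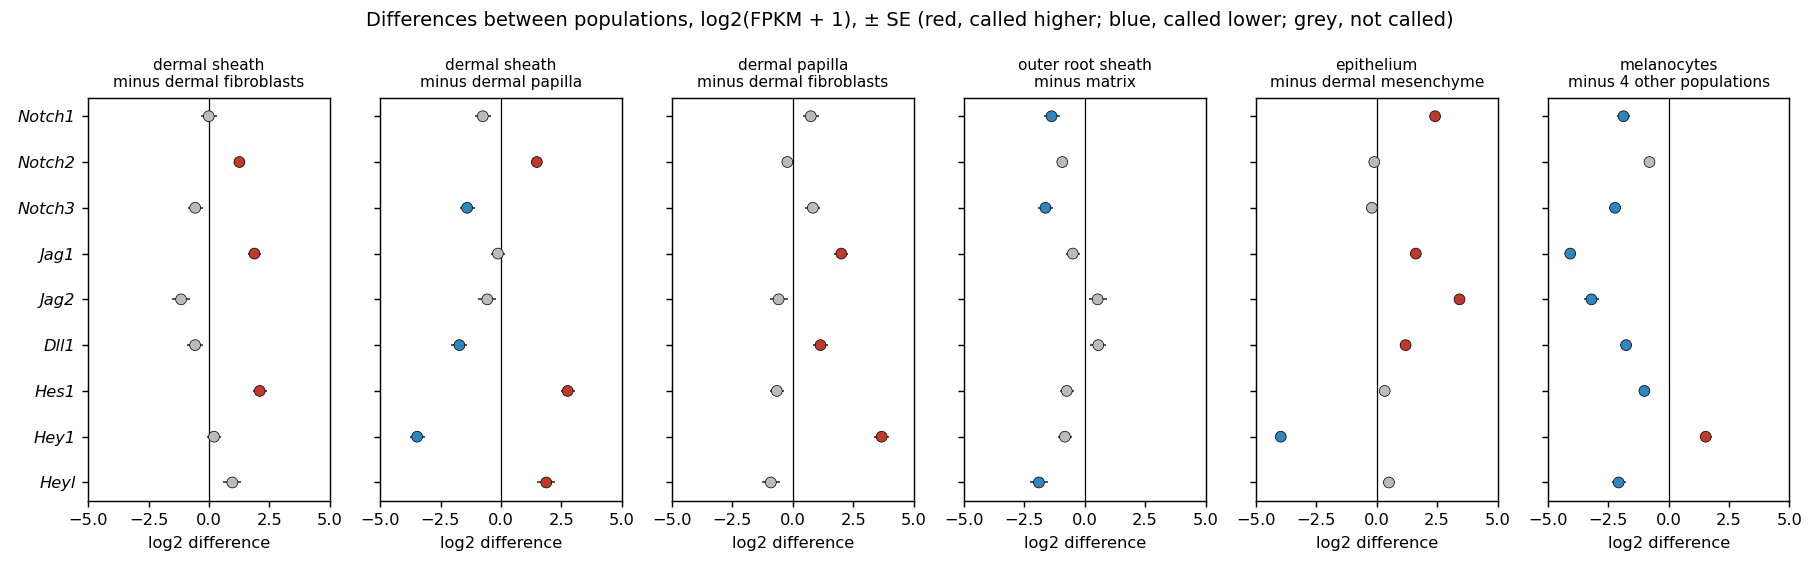
Log2 difference of each tested gene (log2(FPKM + 1), horizontal axes) in the 6 comparisons (panels), with bars of ± 1 SE from limma. Red points were called higher, blue points called lower and grey points not called. Hes1 lies to the right and Hey1 to the left in dermal sheath minus dermal papilla, and 8 of 9 genes lie to the left in melanocytes.

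The sixth comparison set melanocytes against the mean of outer root sheath, matrix, sheath and papilla. Fibroblasts, whose libraries held melanocyte transcripts, were not part of it. All 3 ligands, 2 of 3 receptors, Hes1 and Heyl were lower in melanocytes than this mean, and Hey1 was higher on the log2 scale. Not every single population lay above melanocytes. Mean Hes1 was 15.4 FPKM in melanocytes and 10.7 FPKM in papilla, and Hes1 was called against neither papilla nor outer root sheath. Heyl was not called against papilla, and Notch1 and Dll1 were not called against sheath. Jag1 differed by -4.08 ± 0.23 (16.9-fold lower, limma adjusted p = 2.15e-07) and Jag2 by -3.19 ± 0.30 (9.16-fold lower, adjusted p = 8.17e-06). Notch3 differed by -2.22 ± 0.24 (4.66-fold lower, limma adjusted p = 2.79e-05), Heyl by -2.07 ± 0.30 (4.20-fold lower, adjusted p = 0.000206) and Notch1 by -1.87 ± 0.26 (3.66-fold lower, adjusted p = 0.000184). Dll1, listed at 0 in both melanocyte libraries, was called lower with no fold given, and Hes1 differed by -1.005 ± 0.23 (2.01-fold lower, limma adjusted p = 0.00454).

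Hey1 was higher by 1.53 ± 0.24 (2.89-fold, limma adjusted p = 0.000424) against a mean of 4 populations that is itself uneven: melanocyte Hey1 was above sheath, matrix and outer root sheath and below papilla. In FPKM the direction turns, since the melanocyte mean was 26.9 and the mean of the other 4 populations, which papilla dominates, was 43.1. Notch2 (-0.79 ± 0.18, adjusted p = 0.00562) stayed under the fold threshold. These were 1 higher and 7 lower of 9, against 10.5% and 15.2% of all genes, with a median log2 difference of -1.87 beside -0.07. Hes1 differed by -0.65 and -1.36 and Heyl by -2.74 and -1.40 within replicate numbers 1 and 2. The Hes1 call, at the fold threshold, was lost without melanocyte replicate 2 (-0.58, limma adjusted p = 0.108, range over 18 alternatives 0.000492 to 0.108), fell just under 1 without replicate 1 of sheath, papilla, outer root sheath or matrix and after quantile normalization (-0.94), and at a pseudocount of 5 Notch3, Dll1, Hes1 and Hey1 were no longer called. Across all 6 comparisons, each of the 28 calls had the same sign within replicate number 1 and within replicate number 2. Each log2 difference is the mean of these 2 within-number differences, so the shared sign is not a separate check on the calls.

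Other pathway genes were counted in 3 lists: other receptors, ligands and targets (6 of 12 tested), receptor processing and ligand activity (18 of 19) and the nuclear complex with its modifiers (18 of 18). Within each comparison most of the 42 tested genes were not called, though many were called in at least 1 comparison. Rbpj, the DNA-binding core, had population means of 16.9 to 23.4 FPKM and was called in no comparison. Its replicate 2 library was above its replicate 1 library in every population (27.5 against 15.0 FPKM in sheath, 23.9 against 11.6 in papilla). With that spread, the lack of a call does not show even expression. Each list count below stands against the share of all genes called in the same comparison. Differences from fibroblasts are given here without the melanocyte subtraction. Between sheath and fibroblasts (7.07% higher and 6.37% lower over all genes), 2 of the 6 other receptors, ligands and targets were called higher and none lower. They were Hey2 (6.34 and 12.1 FPKM in sheath against 1.25 and 2.48, log2 difference 1.81) and the non-canonical ligand Dlk2 (1.32). Of the processing genes, 1 was higher, Furin (1.23), the protease of receptor maturation, and 1 lower, Aph1c (-1.997), a γ-secretase subunit whose reads may be shared with its near-identical copy Aph1b. Aph1c was at 14.1 and 13.8 FPKM in melanocytes and at 3.93 and 5.02 in the fibroblast libraries, and the part of the melanocyte transcripts there was not tested. Of the nuclear list only the Notch inhibitor Numbl was called (1.32 higher in sheath).

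In sheath against papilla (7.41% higher and 7.18% lower over all genes) the other receptors, ligands and targets had 1 higher, Dlk2 (1.72), and 1 lower, Hey2 (-2.90). No processing gene was called, and 2 nuclear genes were higher, Numbl (1.60) and the Deltex ubiquitin ligase Dtx4 (1.48). In papilla against fibroblasts (7.50% higher and 6.68% lower over all genes) Hey2 was 1 of 6 called and was higher by 4.71, a 26.2-fold difference (limma adjusted p = 4.70e-06), at 70.9 and 73.7 FPKM in papilla. Hey1 and Hey2 thus were both highest in papilla. Furin (1.74) was higher and Aph1c (-1.09) lower in papilla, and of the nuclear genes Dtx1 (1.70) and the ubiquitin ligase gene Fbxw7 (1.41) were higher and Dtx4 (-1.11) lower.

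Between outer root sheath and matrix (4.59% higher and 2.51% lower over all genes) each list had 1 call: Hes2, a HES-family gene, was lower in outer root sheath (-1.78), and the ligand-activating ubiquitin ligase gene Neurl1b (1.29) and the coactivator gene Maml2 (1.84) were higher. Between epithelium and dermal mesenchyme (15.4% higher and 20.8% lower over all genes), 1 of 6 other receptors, ligands and targets was higher and 2 lower. The Notch target and feedback inhibitor Nrarp was at 37.2 and 23.0 FPKM in matrix and 24.3 and 14.4 in outer root sheath, against at most 3.98 FPKM in the dermal libraries (log2 difference 2.74, limma adjusted p = 1.98e-05). Nrarp stood on the side of Notch1, while Hey2 (-3.52) and Dlk1 (-2.64), a non-canonical ligand, stood on the mesenchymal side with Hey1. Among the processing genes Lfng (2.29), the fringe glycosyltransferase that tunes ligand choice, and Neurl1b (1.39) were higher and the γ-secretase gene Psen2 (-2.36) was lower. Of the nuclear genes 1 was higher, Maml3 (1.60), and 4 lower, among them Numbl (-3.20), Dtx4 (-2.35) and Dtx3 (-2.15).

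In melanocytes 5 of 18 processing genes were higher and 2 lower, against 10.5% and 15.2% of all genes. The 4 with the largest differences were Aph1c (3.16), Adam10 (2.22), Psen2 (2.16) and Lfng (-2.001), with limma adjusted p-values of 7.75e-07, 2.48e-05, 0.000294 and 0.00273. Adam10, the protease of the first ligand-induced cut, was at 116 and 113 FPKM in melanocytes and at most 40.6 FPKM in any other library. Nrarp was lower in melanocytes (-2.32), the coactivator gene Maml2 was higher (1.92) and Numbl was lower (-1.53).

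**Figure D4:**
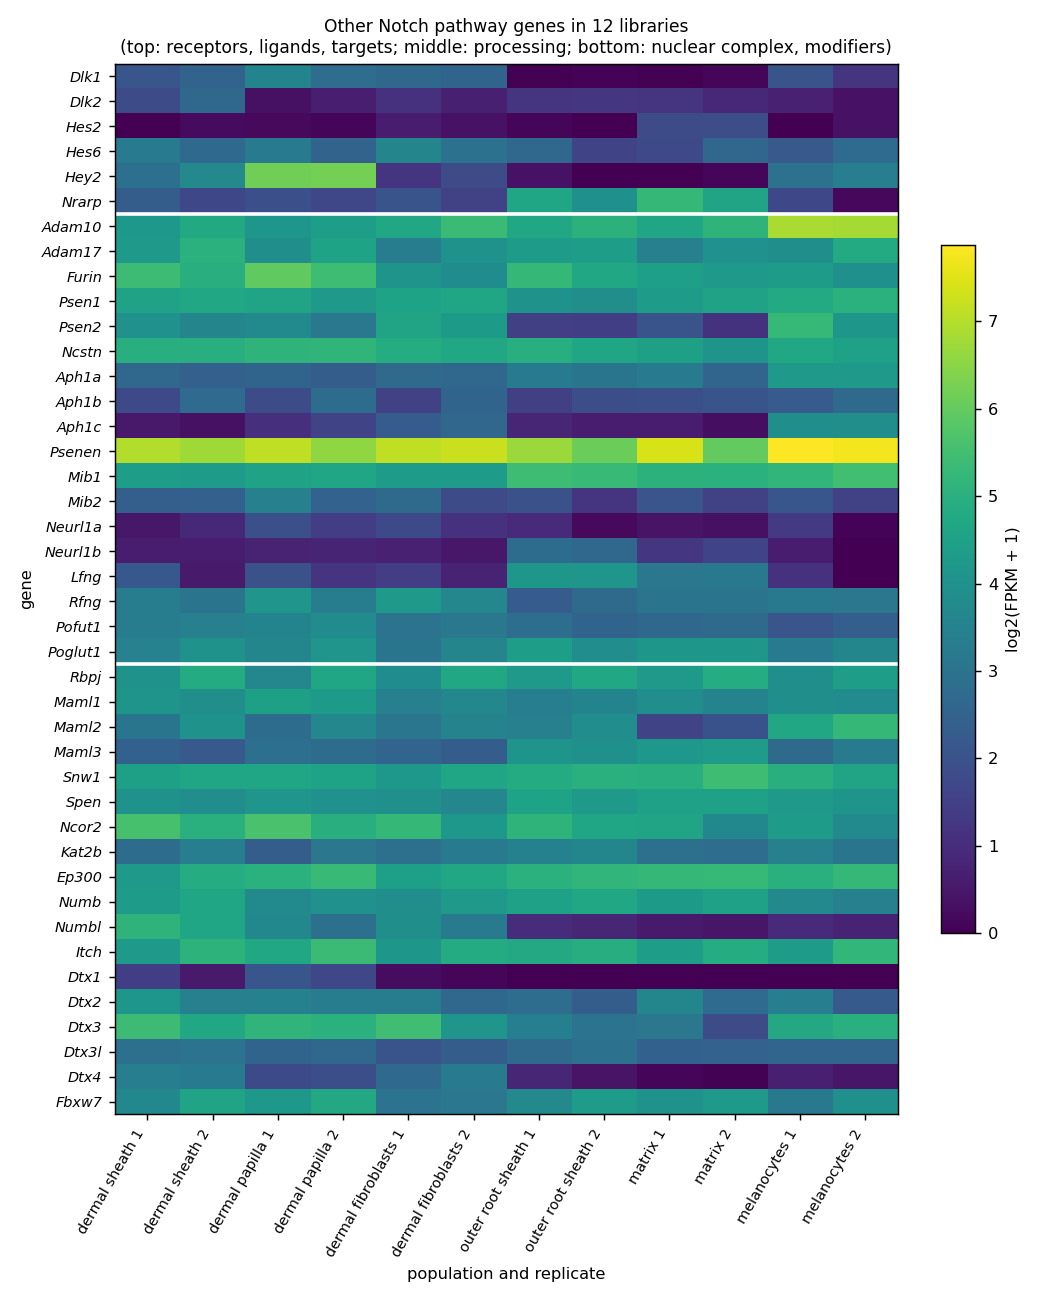
Level of the 42 tested genes of the other pathway lists (rows, log2(FPKM + 1), colour scale) in the 12 libraries (columns), with white lines between the 3 lists. Hey2 is brightest in dermal papilla, Nrarp and Lfng in the epithelial columns, and Aph1c and Adam10 in melanocytes. Rbpj has close population means and is higher in replicate 2 than in replicate 1 of each population.

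Over the 12 libraries, some of the 10 genes varied together, given here as description since the 2 libraries of a population share their cell type. Pearson's r of log2(FPKM + 1) was 0.90 between Notch2 and Hes1, 0.84 between Notch2 and Heyl, and 0.88 between Notch1 and Jag2. Hes1 and Hey1 had an r of -0.48. The genes whose pattern was most like that of each member, among 11278 genes with a mean of at least 5 FPKM in some population, were named by the same measure over the same 12 libraries. Jag2 was most like Trp63 (r = 0.99) and Itgb4 (0.99), basal keratinocyte genes, and then Gyltl1b (0.99). Notch1 was most like 1810019D21Rik (0.98), Paqr5 (0.98) and the desmosomal cadherin gene Dsg1b (0.97).

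Hey1, the papilla gene, was close in pattern to Maob (0.98) and Enpp2 (0.97), and Notch3 was most like Id1 (0.97), Cited4 (0.96) and Cdc42ep1 (0.94). Hes1 had less close neighbours in Klf5 (0.94), Tpm3 (0.90) and Bok (0.90), and Heyl the least close of the 9, in Mtif3 (0.89), Ablim1 (0.88) and 1700125H03Rik (0.88). Mtif3 (0.92) was also among the genes most like Notch2, behind Mgst3 (0.98) and beside Prr5l (0.92). For Jag1 they were an entry that joins several Ugt1a genes (0.97), Epha4 (0.96) and Erbb2 (0.96), and for Dll1 they were Acss2 (0.94), Arhgef5 (0.94) and Serinc2 (0.92).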

How the data were processed

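RNA of 12 libraries (2 in each of 6 sorted populations) was measured. Per the labels' protocols, cDNA was amplified with the Ovation system from RNA whose integrity number was 8 or higher. The authors deposited FPKM values. The submitters' processing notes name Cufflinks 2.1.1, TopHat2 2.0.3, Bowtie2 and build mm10. The roles of these tools, the annotation and the handling of strand are not given in the sources used here. Whole reads could not be recovered from the values, so the absolute depth of the libraries is unknown (relative depth was read for replicate 2), no count test was run, and precision is the spread between 2 libraries. FPKM summed to between 373066 and 524040 per library.

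The values were analysed as log2(FPKM + 1). Genes reaching 1 FPKM in 2 or more libraries (13974 of 19150) entered 1 fit of all 12 libraries with an intensity trend and 6 residual degrees of freedom (limma 3.58.1, run in R 4.3.3). Tests were two-sided, and p-values were adjusted by Benjamini-Hochberg within each of the 6 comparisons. Each population has the same weight in a mean of populations. The test was tried on simulated data with independent libraries and a common spread for all genes. Same-numbered libraries here had correlated deviations (given below), so the simulation is no check on the p-values of these data. The alternatives were pseudocounts of 0.1 and 5, no filter, TPM rescaling, quantile normalization, no intensity trend, a replicate block and each replicate left out. Fits of only the populations compared and, for the 3 dermal comparisons, of only the 6 dermal libraries were also run. A melanocyte share was also subtracted from the fibroblast libraries. It was the median marker ratio times the mean FPKM of the 2 melanocyte libraries, with negative values set to 0. Rescaling after that subtraction and leaving fibroblasts out of the epithelial comparison were added after seeing the data. The 10 genes and the lists were chosen with earlier results of these data known. Named besides the 10 genes are, for each other list and comparison, at most 4 called genes, taken by the size of their log2 difference, and for each of the 9 tested genes the 3 genes with the highest Pearson's r, 1 of which is not reported here. Rbpj and the marker genes are named whatever their values. Coordinates are those of GENCODE M21 (mm10), and promoters those of RefSeq (GRCm38.p6).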

Additional observations from a re-analysis of the deposited data

How the results depend on the processing

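The count of called genes among the 9 tested moved by more than 1.5 times in 3 of 6 comparisons. In sheath against fibroblasts it was 3, and it became 5 (4 higher, 1 lower) with the melanocyte share subtracted and 6 (4 higher, 2 lower) with the rest also rescaled. The calls over all genes rose as well. They were 1878 of 13974 in the main fit, 4999 of 13943 with subtraction and 2619 of 14093 with rescaling. In outer root sheath against matrix it was 3 and fell to between 0 and 1 when a library was left out. In melanocytes it was 8 and fell to 4 at a pseudocount of 5, where the calls over all genes fell from 3597 to 1856 of 13974. Leaving out a library otherwise gave 3 for sheath against fibroblasts, 5 to 6 (main 6) for sheath against papilla, 2 to 3 (main 3) for papilla against fibroblasts, 4 to 5 (main 5) for epithelium and 7 to 8 for melanocytes. Where this leaves a population with 1 library, that library is assumed to vary like the others. Of all single-gene values under the alternatives, 796 stayed on their side of the threshold, 37 lost a call, 11 gained one, and no called gene changed sign, while uncalled values near 0, such as Notch1 in sheath against fibroblasts (-0.33 to 0.51), crossed it; the cause of these shifts was not tested.

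The replicate numbers share no stated batch, so the block is an alternative only. Deviations of same-numbered libraries correlated at 0.193 to 0.539 over 15 pairs of populations. With the replicate block the counts were 4, 6, 3, 3, 5 and 8 in the order of the report, and the 1 change was the added call for Jag2. The block also raised the calls over all genes, to 2129, 2287, 2212, 1324, 5074 and 3638 in the same order.

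Over all genes tested, 1878, 2040, 1981, 993, 5057 and 3597 were called in that order. At a pseudocount of 5 these were 1112, 1200, 1121, 553, 2850 and 1856. With the melanocyte share subtracted, 4999 were called in sheath against fibroblasts and 5810 in papilla against fibroblasts (3315 with rescaling). Without papilla replicate 2, 1345 were called in sheath against papilla. In outer root sheath against matrix, 580, 446 and 449 were called without outer root sheath replicate 1, outer root sheath replicate 2 and matrix replicate 2. TPM rescaling moved the median log2 difference of all genes to -0.15, -0.38 and 0.21 in the 3 dermal comparisons, and the share of higher among called genes in sheath against papilla from 50.8% to 33.1%. Subtraction moved these medians to 0.80 against fibroblasts in sheath and 0.88 in papilla (0.22 and 0.29 with rescaling), and to 0.22 in epithelium against mesenchyme, with 92.3% and 91.8% of called genes higher in the first 2 of these. With 2 libraries a population and unknown absolute depth, values under 1 FPKM, such as those of Hes5, allow no statement on a difference.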
